A study of Homo sapiens with 24 samples.

Results

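The response of the TC32 Ewing sarcoma cell line to pladienolide B (PlaB) was described across all genes that its arrays measured. The members are the 6 of 24 arrays of the series whose labels name TC32, taken from the intensity columns of that line: 3 arrays of cells exposed to 5 nM PlaB for 24 h, and 3 arrays of cells given 0.1% DMSO vehicle for 24 h. TC32 is an established human line, grown here in RPMI-1640 with serum, and neither arm carries a further drug or genetic change per the labels. The sample descriptions name DMSO as the control, whereas the treatment protocol speaks of untreated cells, and the controls are called vehicle here. The series holds the same pair of groups in SKNMC, TC71 and RDES, whose responses are given to show where TC32 differs. Their arrays also entered the normalization, the probe filter and the limma estimate of the spread. The labels do not say that the 3 samples of a group came from separate cultures. The limma p-values for TC32 thus rest on the spread within all 8 groups of the series, which may be technical.

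PlaB binds the SF3b complex, the part of the U2 snRNP that holds the branch-point adenosine of an intron, and blocks an early step of spliceosome assembly. Introns can then be kept or exons skipped, and transcripts that carry premature stop codons are open to nonsense-mediated decay. Ewing sarcoma cells depend on EWS-FLI1, a fusion of the RNA-binding protein EWSR1 with the transcription factor FLI1, which turns on genes such as NKX2-2 and PRKCB. A beadchip probe reads one stretch of a transcript, so it measures the amount of that stretch and not whether a transcript was spliced.

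Most Ewing sarcoma markers were detected. Whether the arrays are of TC32 and not of another Ewing sarcoma line was not tested. Of 15 Ewing sarcoma markers, 13 had a tested probe, 11 were detected on all 3 PlaB arrays and 12 on all 3 vehicle arrays. GLI1 was at background on all 6 arrays, and FLI1 had no probe past the filter. CD99, the surface protein used to diagnose Ewing sarcoma, had log2 levels of 9.74, 9.70 and 9.30 with PlaB, against 9.55, 9.49 and 9.86 with vehicle, and the groups overlapped. Markers of other cell types varied in level. The summed level of the 5 tested epithelial markers was 165.2 to 206.7 intensity units with PlaB, against 139.5 to 160.2 with vehicle, and that of the 4 tested endothelial markers was 110.2 to 120.9 with PlaB, against 112.3 to 127.4 with vehicle. The 4 tested skeletal-muscle markers summed to 73.6 to 81.5 with PlaB and 80.3 to 86.8 with vehicle, and ACTA1 and MYF5 were not detected on any of the 6 arrays. The 6 tested blood-cell markers summed to 1591.7 to 1797.4 with PlaB and 2304.7 to 2610.4 with vehicle. That sum was carried by ITGB2, an integrin subunit of leukocytes, at 10.66, 10.47 and 10.59 with PlaB and 11.05, 11.02 and 11.22 with vehicle. The part of other cells in the results was not tested.

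PlaB arrays detected fewer probes. At a detection p under 0.05 the counts were 15144, 14756 and 14626 probes with PlaB, against 17313, 16936 and 16363 with vehicle, out of 47323 on the chip. The means were 14842 ± 269 with PlaB and 16871 ± 478 with vehicle (SD, n = 3 each), a difference of -2028.7 probes or -12.02%. The groups did not overlap, and the exact two-sided permutation p was 0.1, the smallest that 20 regroupings allow. Log2 levels correlated at 0.9884 to 0.9933 between arrays of one TC32 group and at 0.9529 to 0.9578 between PlaB and vehicle arrays, across probes, which are not independent replicates. Fewer cells and less RNA per cell cannot be told apart in bulk RNA, and their part in the detected counts was not tested. Quantile normalization removes any change in total signal from the log2 levels, whereas the counts rest on the deposited detection p-values.

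About as many probes rose as fell in TC32. Tests were run on the 17557 probes that every array of some group (8 groups in the series) detected, and a probe was called at an adjusted p under 0.05 in limma. Of these, 7189 (40.9%) were called: 3393 (19.3%) rose with PlaB and 3796 (21.6%) fell. Of the called probes, 439 rose and 505 fell by 2-fold or more. The log2 changes ran from -3.01 to 3.24, with a median of -0.02. The levels of the groups did not overlap for 6663 of the called probes, and for 46.7% of all tested probes. Of the tested probes, 1134 were detected on no TC32 array, and 0 of them were called by limma. Read per gene from the brightest probe, 4934 of 10873 genes (45.4%) were called, with 2348 (21.6%) up and 2586 (23.8%) down, and the change reached 2-fold in 311 risen and 375 fallen genes. The balance depended on the scaling: risen probes were 47.2% of the calls here, 15.8% with median centring, which moved the median log2 change of all probes by -0.17, and 58.2% when arrays were centred on the probes detected on all 24 arrays, which moved it by 0.14.

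**Figure D1:**
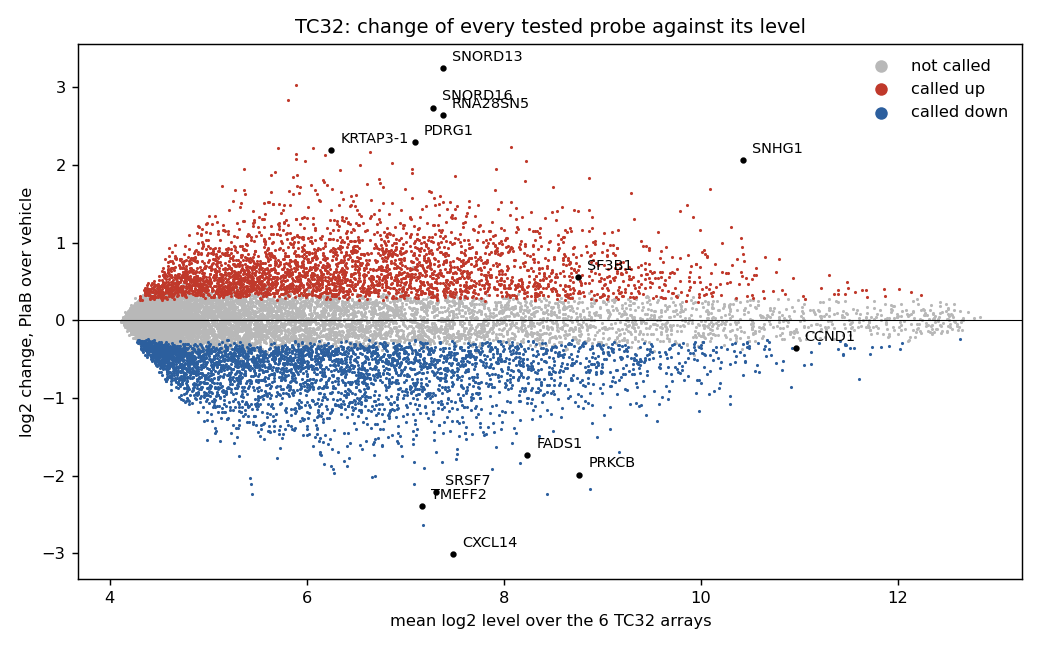
Log2 change in TC32 (PlaB over vehicle, vertical axis) against the mean log2 level over the 6 TC32 arrays (horizontal axis), with 1 point per tested probe, red where called up, blue where called down and grey where not called. Changes ran from -3.01 for CXCL14 to 3.24 for SNORD13, and the black points mark genes given in the text.

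The genes that fell most included a secreted signal, splicing factors and EWS-FLI1 targets. CXCL14, a chemokine that attracts monocytes and dendritic cells, had log2 levels of 6.02, 6.0 and 5.93 with PlaB, against 8.92, 8.93 and 9.14 with vehicle. Its log2 change was -3.01 ± 0.10 (SE), an 8.07-fold lower level (limma, adjusted p = 3.4e-19), with no overlap between groups. TMEFF2, a membrane protein with follistatin and EGF-like domains, stood at 6.01, 5.82 and 6.10 with PlaB and 8.34, 8.32 and 8.44 with vehicle, a change of -2.39. OLFM1, a secreted glycoprotein of neural tissue, stood at 7.32, 7.33 and 7.31 with PlaB and 9.60, 9.49 and 9.56 with vehicle, a change of -2.23. SRSF7, a splicing factor of the SR family, stood at 6.18, 6.34 and 6.09 with PlaB and 8.44, 8.46 and 8.34 with vehicle, a change of -2.21 (adjusted p = 1.3e-12). CDC40, a second-step splicing factor, stood at 5.81, 6.08 and 6.23 with PlaB and 8.18, 8.27 and 7.97 with vehicle, a change of -2.10. In each of these 5 genes every PlaB array lay below every vehicle array, which the rule that chose the leading genes required. The next 7 coding genes in order fell by 2.01 to 1.90 on the log2 scale: PCDH7, a protocadherin, UCP2, a mitochondrial carrier, PRKCB, a protein kinase C, ATP2B4, a plasma membrane calcium pump, TNFSF13B, the B-cell survival factor BAFF, PAAF1, a proteasome ATPase-associated factor, and PNMA2. Of ATP2B4's tested probes, one went the other way, by 0.41 (adjusted p = 0.012).

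The coding genes that rose most held varied roles. PDRG1, a subunit of the prefoldin-like R2TP complex, had log2 levels of 8.23, 8.23 and 8.28 with PlaB, against 6.03, 5.87 and 5.95 with vehicle. Its log2 change was 2.30 ± 0.11 (SE), a 4.91-fold higher level (limma, adjusted p = 2.8e-15). KRTAP3-1, a keratin-associated protein of hair, stood at 7.25, 7.44 and 7.35 with PlaB and 4.86, 5.23 and 5.38 with vehicle, a change of 2.19. P2RY11, a purine receptor, stood at 7.02, 7.38 and 7.37 with PlaB and 5.11, 5.16 and 5.09 with vehicle, a change of 2.13. BRF2, which recruits RNA polymerase III to the U6 and 7SK promoters, stood at 7.84, 7.96 and 7.85 with PlaB and 5.85, 5.82 and 5.89 with vehicle, a change of 2.03. GRWD1, a ribosome assembly and histone-binding factor, stood at 8.90, 8.91 and 8.86 with PlaB and 7.09, 6.73 and 7.02 with vehicle, a change of 1.94. The groups stood apart in all 5, again by the rule that chose them. AIRIM, MARCHF4, a ubiquitin ligase, PRR4, TWNK, the mitochondrial DNA helicase, RASSF1, a RAS-association domain protein, NUP50, a nuclear pore protein, and JMJD6, a lysyl hydroxylase, followed with changes of 1.94 to 1.71. Each of the 24 leading coding genes kept its direction and its call under all 16 alternatives that read the same probe, and of their other tested probes, one of OLFM1 changed by -0.27 and was not called.

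**Figure D2:**
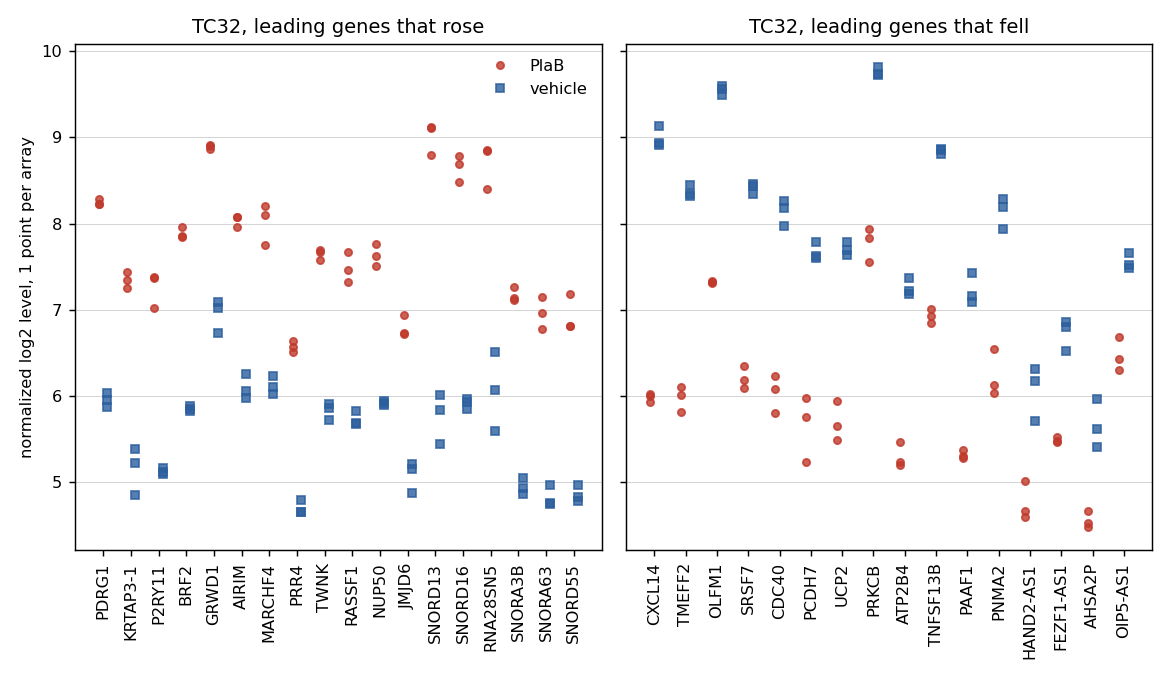
Normalized log2 level on each TC32 array (PlaB as red circles, vehicle as blue squares) for the 12 coding and 6 noncoding genes that rose most (left) and the 12 coding and 4 noncoding genes that fell most (right). In every gene the 3 PlaB arrays lay on one side of the 3 vehicle arrays, by the rule that chose them, and the largest spread within a group was that of RNA28SN5 with vehicle, at 5.60 to 6.51.

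Small nucleolar RNAs guide the methylation and pseudouridylation of ribosomal and spliceosomal RNAs, and most are cut from introns that have been spliced out of a host transcript. Of 116 tested snoRNA and scaRNA genes, 73 (62.9%) rose and 3 (2.59%) fell, with a median log2 change of 0.58, whereas over all genes the median was -0.02 and 21.6% rose. The median was 0.33 with 55 up and 6 down under median centring, and 69 of the 116 were detected on all 6 arrays. SNORD13, which has its own promoter and takes part in 18S rRNA maturation, stood at 9.11, 8.80 and 9.12 with PlaB and 5.84, 5.44 and 6.01 with vehicle, a change of 3.24 ± 0.14 (SE), or 9.47-fold (limma, adjusted p = 5.8e-17). SNORD16 stood at 8.79, 8.69 and 8.48 with PlaB and 5.85, 5.93 and 5.96 with vehicle, a change of 2.74. Both were far above the spread of their groups. SNORA3B, SNORA63 and SNORD55 rose by 2.22, 2.14 and 2.07. The 3 that fell were SNORD48 at -0.87, SNORD14D at -0.42 and SCARNA9, which was not detected with PlaB and was at least 1.12-fold lower. Several snoRNAs have near-identical copies, which a probe may not tell apart.

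RefSeq gene intervals placed 89 of the 116 inside a tested gene, without regard to strand. These hosts numbered 66, of which 24 rose and 8 fell, with a median host change of 0.11. Over all genes, 21.6% rose and 23.8% fell. Of 56 risen snoRNAs with a tested host, 22 had a host that rose and 4 had a host that fell. SNORD16 lies in RPL4, a protein of the large ribosomal subunit, whose log2 change was 0.05 (adjusted p = 0.76). SNORA3B lies in RPL27A, with a change of 0.10 (adjusted p = 0.47), and SNORD100, which rose by 2.05, lies in RPS12, with a change of -0.08 (adjusted p = 0.61). Noncoding hosts that rose held snoRNAs with unequal changes. SNHG12 rose by 1.79 and its SNORD99, SNORA61 and SNORA16A by 1.74, 1.48 and 0.53. SNHG1 rose by 2.06 and its SNORD25, SNORD22 and SNORD31 by 1.46, 0.42 and 0.41, while its SNORD30 had a change of 0.32 and was not called. SNHG17, SNHG4 and SNHG15 rose by 1.35, 1.28 and 0.58, and their SNORA71A, SNORA74A and SNORA9 had changes of 0.19, 0.09 and -0.21 and were not called. SNHG1 stood at 11.48, 11.43 and 11.45 with PlaB and 9.32, 9.31 and 9.55 with vehicle. Of 20 listed host genes, 13 (65%) rose and 1 fell, RPL7A at -0.36.

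**Figure D3:**
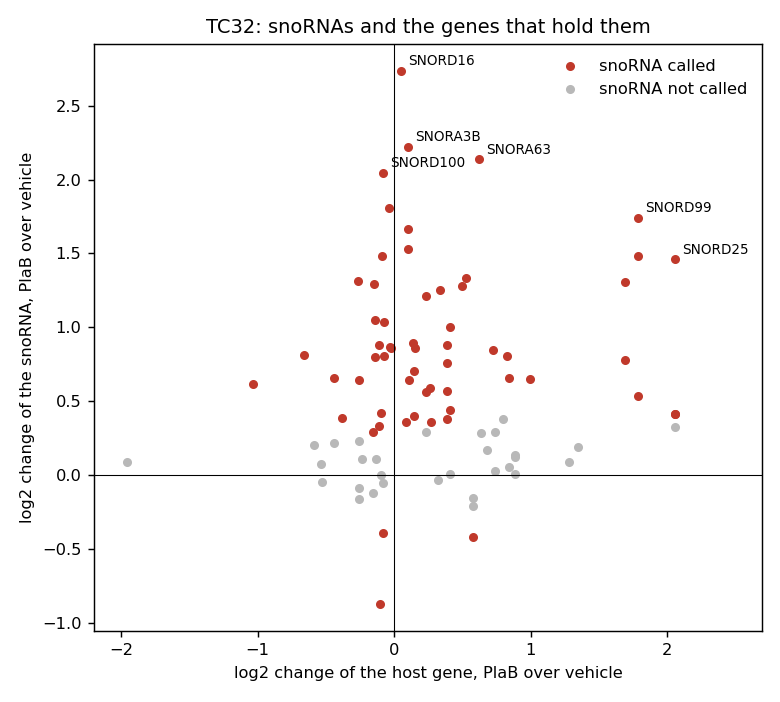
Log2 change in TC32 of each snoRNA (vertical axis) against that of the tested gene that holds it (horizontal axis), PlaB over vehicle, red where the snoRNA was called. The called snoRNAs lay mostly above 0 on the vertical axis at host changes on either side of 0, with SNORD16 at 2.74 for a host change of 0.05.

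Other structural RNAs rose in part. Of 19 tested, 9 (47.4%) rose and 3 (15.8%) fell, with a median of 0.30, and with 3 up and 4 down at a median of 0.14 under median centring. RNU4ATAC, an RNA of the minor spliceosome, stood at 6.77, 6.75 and 6.51 with PlaB and 4.68, 5.28 and 5.17 with vehicle, a change of 1.63 (adjusted p = 1.3e-11). RPPH1, the RNA of RNase P, rose by 0.97, RN7SK, which holds the elongation factor P-TEFb inactive, by 0.74, and RNU1-1, the U1 RNA, by 0.60. The 28S ribosomal RNA gene RNA28SN5 stood at 8.40, 8.85 and 8.85 with PlaB and 6.07, 5.60 and 6.51 with vehicle, a change of 2.64 ± 0.34 (SE). Its standard error was the widest of the leading genes, the gene has many near-identical copies that 1 probe cannot tell apart, and the other lines gave changes of -3.72 (SKNMC), 0.32 (TC71) and 1.78 (RDES). A dimmer RNA28SN5 probe, detected on all 6 arrays, rose by only 0.49 (limma, adjusted p = 0.02), with overlap between groups. The 3 structural RNAs that fell were RNY5 at -0.61, RNY4 at -0.36 and VTRNA1-1 at -0.32. Among long noncoding RNAs, HAND2-AS1 fell by 1.31, FEZF1-AS1 by 1.24 and OIP5-AS1 by 1.09, and the pseudogene transcript AHSA2P by 1.11. The arrays cannot tell an antisense RNA's change from that of overlapping transcripts beyond what the probe sequence allows.

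Of 9 tested SF3b and SF3a subunits, 6 (66.7%) rose and 0 fell at an adjusted p under 0.05 in limma, and the median change was 0.47. SF3B4 stood at 10.52, 10.41 and 10.54 with PlaB and 9.20, 8.96 and 9.10 with vehicle, a change of 1.40 ± 0.10 (SE) (adjusted p = 2.7e-12). SF3A2 rose by 0.93, SF3B5 by 0.47 and SF3A3 by 0.35. SF3B1, the subunit that contacts the drug, stood at 9.02, 9.08 and 9.01 with PlaB and 8.38, 8.59 and 8.47 with vehicle, a change of 0.56 (adjusted p = 0.00018), and of 0.22 and not called with median centring. PHF5A, the other subunit of the binding pocket, stood at 9.62, 9.50 and 9.54 with PlaB and 8.72, 8.91 and 8.83 with vehicle, a change of 0.73. SF3B2, SF3B6 and SF3B3 had changes of 0.17, 0.14 and -0.20 and were not called. With median centring the list's median was 0.09, with 3 up and 1 down.

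Other splicing genes went both ways. Of 16 branch-site and U2-associated factors, 8 (50%) rose and 3 (18.8%) fell; CHERP, RBM39 and SNRPB2, a protein of the U2 snRNP, rose by 1.07, 1.07 and 0.85, and RBM17, also called SPF45, fell by 0.81. Of 38 core snRNP and catalytic proteins, 16 (42.1%) rose and 4 (10.5%) fell, with SYF2 at 1.33, SNRPD3, a Sm-ring protein, at 0.98, PRPF4 at 0.95 and SNRPN at -0.94. A second probe of SNRPN was detected on 0 of the 6 arrays. With median centring these lists turned, with 3 up and 4 down at a median of -0.08, and 5 up and 6 down at -0.06. Of 20 SR proteins and kinases, 6 rose and 2 fell, and with median centring 2 rose and 8 fell. The 2 that fell were SRSF7, given above, and SRSF3, at 6.59, 6.29 and 6.30 with PlaB and 7.39, 7.40 and 6.97 with vehicle, a change of -0.86 (adjusted p = 1.5e-05). CLK3, a kinase of SR proteins, rose by 1.43, and SRSF5 by 0.80, with a second SRSF5 probe at 0.24 and not called. Of 31 hnRNPs and related regulators, 7 (22.6%) rose and 7 (22.6%) fell, near the shares of all genes, and with median centring 1 rose and 13 fell. TIA1, an RNA-binding protein of stress granules, fell by 1.60, HNRNPH3 by 1.02 and HNRNPH1, a regulator of exon choice, by 0.47, whereas HNRNPDL rose by 0.96. Of 34 export, exon-junction and decay factors, 11 rose and 5 fell: SMG5, of nonsense-mediated decay, by 1.69, RNPS1, an exon-junction protein, by 0.93, and the falling THOC6, of the THO export complex, by 1.07 and EXOSC7, of the exosome, by 0.80. With median centring 6 of these factors rose and 14 fell. Of 31 nuclear pore genes, 12 rose and 8 fell, with RAE1 at 1.31, RANGAP1 at 0.90 and NUP88 at -1.72, and with median centring 7 rose and 11 fell.

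**Figure D4:**
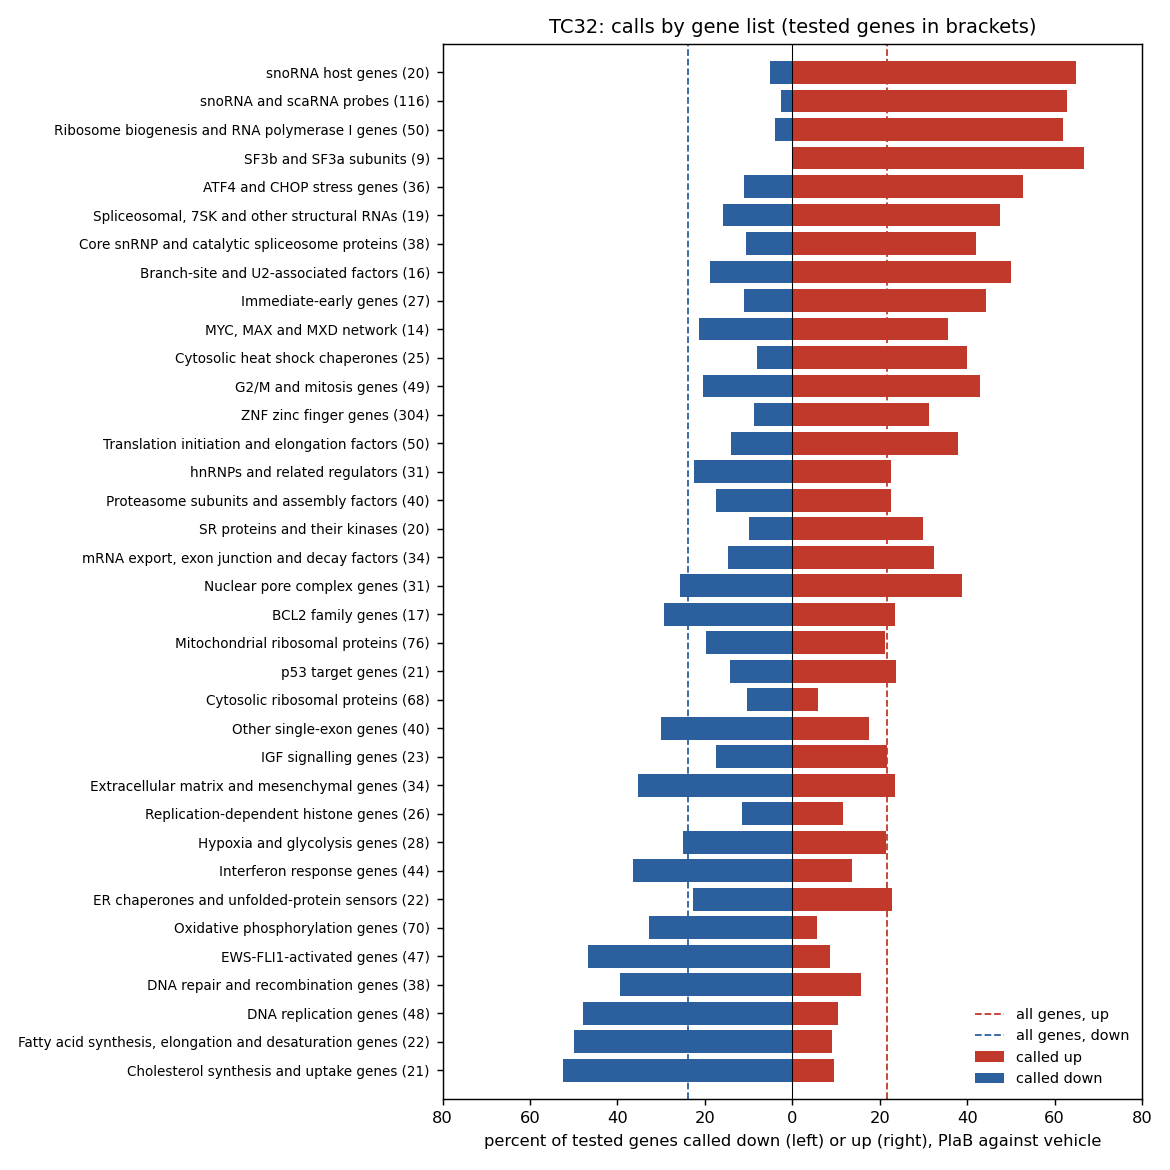
Share of the tested genes of each list that were called down (blue, to the left) or up (red, to the right) in TC32, PlaB against vehicle, with the lists in order of median log2 change from top (highest) to bottom (lowest) and dashed lines at the shares over all genes, 21.6% up and 23.8% down. The snoRNA host, snoRNA and ribosome biogenesis lists stood at the top with 62% to 65% up, and the cholesterol, fatty acid and DNA replication lists at the bottom with 47.9% to 52.4% down.

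Most ribosome biogenesis genes rose. These genes process and assemble ribosomal RNA in the nucleolus. Of 50 tested, 31 (62%) rose and 2 (4%) fell, with a median change of 0.51, and of 0.12 with 17 up and 6 down under median centring. MPHOSPH10, of the small-subunit processome, stood at 9.99, 10.15 and 10.19 with PlaB and 8.55, 8.38 and 8.48 with vehicle, a change of 1.64 ± 0.10 (SE) (limma, adjusted p = 1.4e-13). POLR1C, shared by RNA polymerases I and III, rose by 1.45, RIOK2, a kinase of small-subunit maturation, by 1.22, and NOP2, an rRNA methyltransferase, by 1.16. UTP14A, a processome component, rose by 1.05. The 2 that fell were BOP1 at -0.73 and HEATR1 at -0.52. By contrast, of 68 cytosolic ribosomal proteins 4 (5.88%) rose and 7 (10.3%) fell, under the shares of all genes, and 1 rose and 23 fell with median centring. The largest changes among them were RPS23 at 0.96 and RPS18 at -0.85. RPL13 rose by 0.50 on its brightest probe and fell by 0.70 on another. Of 50 translation factors, 19 (38%) rose and 7 (14%) fell, among them EIF1 at 0.82, EIF5 at 0.99, the release factor ETF1 at -0.73 and EIF4E3, which was detected on 0 PlaB arrays and was at least 1.70-fold lower. Dimmer probes of EIF5 changed by -0.34, -0.01 and 0.14 and one of ETF1 by -0.06, and these were not called. The list's median was 0.13, and -0.12 with 3 up and 16 down under median centring.

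ATF4 is the transcription factor whose translation increases when eIF2 is phosphorylated, and CHOP, encoded by DDIT3, is one of its targets. Of 36 tested genes of this response, 19 (52.8%) rose and 4 (11.1%) fell, with a median of 0.37. With median centring 9 rose and 13 fell, and the median was 0.04. ATF3 stood at 6.50, 6.63 and 6.40 with PlaB and 5.18, 4.88 and 5.02 with vehicle, a change of 1.48 ± 0.12 (SE) (adjusted p = 2.4e-11). PPP1R15A, which brings phosphatase to eIF2, rose by 1.33, DDIT4, an inhibitor of mTORC1, by 1.10, SLC3A2, a chain of the large neutral amino acid transporter, by 1.10, DDIT3 by 0.96 and TRIB3 by 0.84. ATF4 itself rose by 0.61. CBS, of cysteine synthesis, fell by 1.03, CEBPG by 0.77, AARS1 by 0.69 and SLC7A11, the cystine transporter, by 0.35. Of 22 genes of endoplasmic reticulum chaperones and sensors, 5 rose and 5 fell, and 1 rose and 12 fell with median centring, with CREB3L2 at -1.11, CRELD2 at -1.05, MANF at -0.94 and DNAJB9 at 0.92. Of 25 heat shock chaperones, 10 (40%) rose and 2 (8%) fell, whereas 4 rose and 6 fell with median centring: DNAJA1 rose by 1.21, BAG3 by 0.98, DNAJB2 by 0.93 and DNAJB1 by 0.78. A further probe of DNAJB2 changed by -0.08 and was not called.

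Of 47 tested EWS-FLI1-activated genes known from other work, 22 (46.8%) fell and 4 (8.51%) rose, with a median of -0.18. Over all genes, 23.8% fell and 21.6% rose. NKX2-2, a transcription factor needed for transformation by the fusion, stood at 8.55, 8.52 and 8.91 with PlaB and 9.42, 9.70 and 9.41 with vehicle, a change of -0.85 ± 0.12 (SE) (adjusted p = 6.9e-07). PRKCB stood at 7.93, 7.83 and 7.56 with PlaB and 9.82, 9.74 and 9.72 with vehicle, a change of -1.99. APCDD1, an inhibitor of Wnt signalling, fell by 1.58, VRK1, a nuclear kinase, by 1.23, JAK1 by 0.85 and CCND1, cyclin D1, by 0.36. The 4 that rose were CDC25A at 0.71, DKK2, which was detected on 0 vehicle arrays and was at least 1.12-fold higher, BCL11B at 0.34 and E2F3 at 0.34. EWSR1 stood at 8.74, 8.77 and 8.63 with PlaB and 8.77, 8.24 and 8.47 with vehicle, a change of 0.22 with overlap between groups (adjusted p = 0.16), and its other probes changed by -0.16 and 0.18 and were not called. IGF1R, the IGF receptor that Ewing cells need, was detected on none of the PlaB arrays and on 1 vehicle array and gives no usable change. Of 23 IGF signalling genes, 5 rose and 4 fell, and 2 rose and 8 fell with median centring, with SOS1 at 1.21, FOXO3 at 0.75 (its second probe at 0.14 and not called), IGFBP5 at -0.86 and MTOR at -0.78.

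Of 48 DNA replication genes, 23 (47.9%) fell and 5 (10.4%) rose, with a median of -0.25. For comparison, 23.8% of all genes fell and 21.6% rose. ORC3, a subunit of the origin recognition complex, stood at 5.21, 4.78 and 5.46 with PlaB and 6.57, 6.45 and 6.34 with vehicle, a change of -1.30 ± 0.16 (SE) (adjusted p = 1.5e-07). POLD2, of DNA polymerase delta, fell by 1.07, RPA3 by 1.05, CDC45, of the replicative helicase, by 1.02 and MCM7 by 0.95. CDT1, the licensing factor, stood at 7.81, 8.25 and 7.61 with PlaB and 6.57, 6.36 and 6.44 with vehicle, a change of 1.43, and ORC1 rose by 1.11. The other 3 that rose were POLE3 at 0.91, RPA2 at 0.53 and GINS3 at 0.48. Of 38 repair genes, 15 (39.5%) fell and 6 (15.8%) rose, with RAD51AP1 at -1.22, OGG1, which removes oxidised guanine, at -1.13, ATM at -1.08 and XRCC1 at -0.97. Of 49 G2/M and mitosis genes, 21 (42.9%) rose and 10 (20.4%) fell. CDCA8, of the chromosomal passenger complex, rose by 1.02 and CKS2 by 0.84, while HMMR fell by 0.98, CDC25C by 0.93 and DLGAP5 by 0.89. The other 2 probes of CDC25C changed by -0.13 and -0.22, and a dimmer probe of ATM by -0.17, and none of them was called. The median of the mitosis list was 0.17, and -0.14 with 5 up and 16 down under median centring. Of 26 replication-dependent histone genes, 3 (11.5%) rose and 3 (11.5%) fell, and 7 of the 26 were detected on all 6 arrays.

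Survival and arrest genes moved in both directions. Of 17 BCL2-family genes, 4 (23.5%) rose and 5 (29.4%) fell, near the shares of all genes (21.6% up and 23.8% down). With median centring 1 rose and 7 fell. BCL2L1, whose transcript encodes BCL-xL or, by another splice site, BCL-xS, stood at 8.18, 8.12 and 8.38 with PlaB and 7.64, 7.71 and 7.77 with vehicle, a change of 0.52. BID rose by 0.99, and BNIP3L, BNIP3 and BAX fell by 1.06, 0.96 and 0.81. A dimmer BAX probe changed by 0.11 and was not called. MCL1, a survival gene with known splice switching, had a change of 0.11 and overlapping groups (adjusted p = 0.66). Of 21 p53 targets, 5 (23.8%) rose and 3 (14.3%) fell, and with median centring 2 rose and 6 fell. CDKN1A, which encodes the cell cycle inhibitor p21, stood at 7.85, 8.04 and 8.25 with PlaB and 8.87, 8.93 and 8.83 with vehicle, a change of -0.83 ± 0.12 (SE) (adjusted p = 1.7e-06). AEN, an apoptosis-linked nuclease, rose by 1.20 and SESN2 by 0.91. MYC stood at 8.92, 8.88 and 8.99 with PlaB and 8.47, 8.34 and 8.43 with vehicle, a change of 0.52 (adjusted p = 0.0012), and its other tested probe was detected on 0 of the 6 arrays. With median centring the changes of MYC and BCL2L1 were 0.17 each, that of MXD4 was also 0.17, that of ODC1 was 0.25, and none of these 4 was called. Of 14 genes of the MYC network, 5 rose and 3 fell, and 1 rose and 5 fell with median centring, with ODC1, an MYC target of polyamine synthesis, at 0.57 and MXD4 at 0.56.

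Cholesterol and fatty acid genes are driven by the SREBP transcription factors, which INSIG1 holds back in the endoplasmic reticulum. Of 21 cholesterol genes, 11 (52.4%) fell and 2 (9.52%) rose, with a median of -0.38. For this list and those below, the shares over all genes were 23.8% down and 21.6% up. INSIG1 stood at 6.07, 5.43 and 6.11 with PlaB and 7.66, 7.47 and 7.27 with vehicle, a change of -1.60 ± 0.14 (SE) (adjusted p = 1.5e-10). SREBF1 stood at 5.48, 5.33 and 5.60 with PlaB and 7.04, 6.96 and 7.0 with vehicle, a change of -1.53. TM7SF2, a sterol reductase, fell by 1.25 and DHCR7, the last step of cholesterol synthesis, by 1.18, while SREBF2 was detected on 0 PlaB arrays and 1 vehicle array. The 2 that rose were SC5D at 0.48 and NSDHL at 0.46. Of 22 fatty acid genes, 11 (50%) fell and 2 (9.09%) rose, with a median of -0.33. FADS1, a desaturase, stood at 7.47, 7.30 and 7.33 with PlaB and 9.19, 9.0 and 9.14 with vehicle, a change of -1.74. SCD fell by 1.40, ACACA by 1.23, ACACB by 1.18 and FASN, the fatty acid synthase, by 1.12. Of 70 oxidative phosphorylation genes, 23 (32.9%) fell and 4 (5.71%) rose, with ATP5F1C at -1.39, UQCC2 at -1.38, ATP5PO at -0.94 and NDUFA7 at -0.93. Of 28 hypoxia and glycolysis genes, 6 rose and 7 fell, and 1 rose and 16 fell with median centring, with PFKP at -1.0, PFKL at -0.62 and EGLN1 at 0.81.

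Matrix and signalling genes moved in both directions. Of 34 extracellular matrix and mesenchymal genes, 12 (35.3%) fell and 8 (23.5%) rose, with a median of -0.05. With median centring 14 fell and 4 rose. When arrays were centred on the probes detected on all 24 arrays, 11 fell and 11 rose, with a median of 0.13. COL5A1 stood at 5.66, 5.59 and 5.71 with PlaB and 7.04, 7.29 and 7.37 with vehicle, a change of -1.58 (adjusted p = 3.6e-11), and COL3A1 fell by 1.55 and PDGFRB by 1.19. FN1, fibronectin, stood at 6.48, 6.34 and 6.36 with PlaB and 5.30, 5.30 and 4.82 with vehicle, a change of 1.25. Of 27 immediate-early genes, 12 (44.4%) rose and 3 (11.1%) fell. SRF, the serum response factor, rose by 1.29 and CCN1 by 1.19, and FOS, EGR1 and JUND fell by 1.0, 0.35 and 0.46. The list's median was 0.24, and -0.03 with median centring. Of 44 interferon response genes, 16 (36.4%) fell and 6 (13.6%) rose, against 23.8% and 21.6% of all genes. With median centring 20 fell and 1 rose, and with centring on the probes detected on all 24 arrays 14 fell and 9 rose. Among them were the immunoproteasome subunit PSMB8 at -1.16, IFI35 at -1.05 and IFI16 at -0.90. PSMB9, its partner subunit, was at least 1.69-fold lower with PlaB, being detected on 0 PlaB arrays and on 3 vehicle arrays.

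Genes without introns need no splicing. Of 40 single-exon genes other than histones, 12 (30%) fell and 7 (17.5%) rose, near the 45.4% called over all genes, with a median of -0.01, and 17 fell and 2 rose with median centring. POU3F2, a neural transcription factor, stood at 7.17, 7.03 and 7.10 with PlaB and 8.65, 8.81 and 8.74 with vehicle, a change of -1.63. SOX11 fell by 1.19 and SOX2 by 0.98, and CEBPD rose by 1.18. Of 304 tested ZNF zinc finger genes, 95 (31.2%) rose and 27 (8.88%) fell, with a median of 0.14, and of -0.06 with 39 up and 54 down under median centring. ZNF317, ZNF296, ZNF410 and ZNF426 rose by 1.48, 1.32, 1.26 and 1.18. Of 40 proteasome genes, 9 (22.5%) rose and 7 (17.5%) fell, and 4 rose and 17 fell with median centring, with PSMD12 at 1.19, PSMG4 at -1.53 and PSMG1 at -1.04. Of 76 mitochondrial ribosomal proteins, 16 (21.1%) rose and 15 (19.7%) fell, near the shares of all genes, and 1 rose and 31 fell with median centring, with MRPL24 at -1.24, MRPL13 at -0.83, MRPL44 at 0.73 and MRPS26 at 0.67. Of 2 genes often used as loading references, ACTB had a change of 0.27 (adjusted p = 0.072) and GAPDH fell by 0.33 (adjusted p = 0.010) on the brightest probe. Further ACTB probes changed by 0.40 and 0.32 and were called up in limma, and further GAPDH probes changed by -0.32 and -0.47 and were called down.

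Some genes were detected in one group only. By the fold bound, 53 of 10873 tested genes had a probe detected on all 3 PlaB arrays and on no vehicle array. In the other direction, 412 had one detected on all 3 vehicle arrays and on no PlaB array. PlaB arrays detected fewer probes across the chip, and their lowest detected log2 signal was 4.459 to 4.485, against 4.382 to 4.411 with vehicle. The part of this in the unequal counts was not tested. Such a fold is a lower bound, taken against the lowest detected signal of each array. AKR1B10, an aldo-keto reductase, stood at 5.43, 5.53 and 5.56 with PlaB and was not well above background with vehicle, at least 2.16-fold higher. CHRNA10, TCAIM, AURKC, MAX and GGT1 were at least 1.95, 1.84, 1.69, 1.60 and 1.60-fold higher. In the other direction, a probe of RBM12, an RNA-binding protein gene, was not well above background with PlaB and stood at 6.54, 6.70 and 6.47 with vehicle, at least 4.27-fold lower. DHRS4-AS1, MXD3, a MAX-binding repressor, RAB26, NUDT18 and GREM1, a BMP antagonist, were at least 2.69, 2.50, 2.44, 2.44 and 2.20-fold lower. The brightest RBM12 probe had a change of 0.13 (adjusted p = 0.45), so the probes of that gene differed, and a second TCAIM probe was detected with vehicle only and was at least 1.17-fold lower. The MAX and AURKC bounds are likewise those of a probe that is not the brightest of its gene, and a further MAX probe, detected on 3 PlaB and 2 vehicle arrays, changed by 0.26 and was not called.

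Probes of one gene could disagree. Of 1452 genes with at least 2 probes detected on all 6 arrays, 40 (2.75%) had probes called in opposite directions. In OCIAD2 one probe averaged 9.19 with PlaB and 6.96 with vehicle, a change of 2.23, while the other averaged 9.13 with PlaB and 9.66 with vehicle, a change of -0.52. The widest gaps after it were ATP2B4 at 0.41 and -1.96, GPX8 at 0.64 and -1.14, SLC39A3 at 0.49 and -1.26, DENR, a translation reinitiation factor, at 0.71 and -1.04, and AHCTF1 at 0.86 and -0.81. The arrays do not say which transcript forms these probes read.

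The TC32 response was set against the mean response of the other 3 lines. The interaction contrast in limma called 3258 of 17557 probes (18.6%), with 1684 (9.59%) above and 1574 (8.97%) below the mean of the others. Of these, 55 were above and 105 below by 2-fold or more, and 216 were called in opposite directions in TC32 and in the mean of the others. These counts include probes that other lines did not detect, whose response there is not measured. CXCL14 is one of them: it was detected on 6 TC32 arrays and on 1 of the 18 arrays of the other lines, so no size is given for the difference. TNFSF13B fell by 1.92 in TC32, and changed by 1.08 in SKNMC, 0.97 in TC71 and 0.10 in RDES, a difference of -2.63. GRM2, a glutamate receptor, fell by 1.78 in TC32, at a difference of -1.94. ST8SIA5, a sialyltransferase, FRZB, a secreted Wnt antagonist, and FOS fell in TC32 and had positive changes in each other line, although the vehicle arrays of 1 other line did not detect each of them. KRTAP3-1 and MARCHF4, which rose in TC32, were detected on 0 and 3 of the 18 arrays of the other lines and are given no difference. SH3PXD2A and FANCL had changes of 0.15 and 0.03 in TC32 and were not called there, against mean changes of -1.52 and -1.56 in the others, and SOX18 rose by 0.38, against -1.25.

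**Figure D5:**
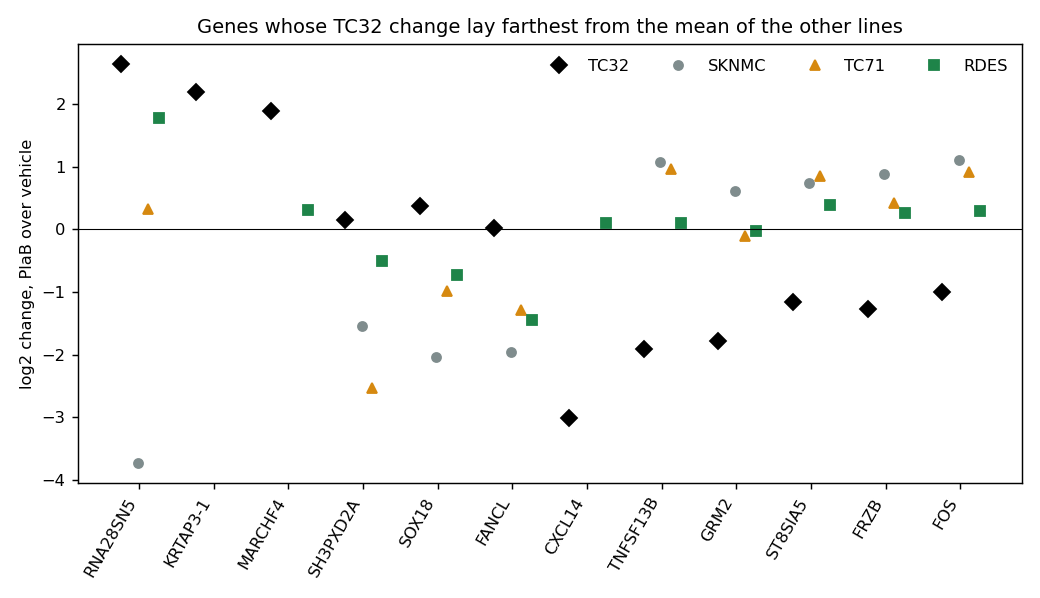
Log2 change (PlaB over vehicle, vertical axis) in TC32 (black diamonds), SKNMC (grey circles), TC71 (orange triangles) and RDES (green squares) for the 6 genes most above and the 6 most below the mean of the other lines. No point is drawn where a line detected the probe on none of its arrays, as for KRTAP3-1 in all 3 other lines, and TNFSF13B fell by 1.92 in TC32 with values of 0.10 to 1.08 in the others.

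By list, the same test of the difference fell unevenly, while 9.59% of all tested probes lay above and 8.97% below. With median centring the counts over all probes were 673 above and 1780 below. The list counts of this difference were not taken under that scaling. Of 48 DNA replication genes, 16 lay above the mean of the other lines and 0 below at an adjusted p under 0.05 in limma, and the list's median was -0.25 in TC32 and -0.43 in the others. Of 50 ribosome biogenesis genes, 13 lay above and 0 below, with medians of 0.51 in TC32 and 0.25 in the others. Of 44 interferon response genes, 4 lay above and 10 below. Of 116 snoRNA genes, 17 lay above and 14 below. MYC and CDKN1A differed from the others, with MYC at 0.52 in TC32 and -0.27 in the mean of the others, and CDKN1A at -0.83 in TC32 and 0.23 in the others. PHF5A rose more in TC32 on its brightest probe, at 0.73 against 0.19 in the others (adjusted p of the difference 0.0013). A second PHF5A probe had a difference of 0.31, which was not called.

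Promoters were searched for motifs in lists whose members moved largely one way. They were read from RefSeq promoters (GRCh38.p14, 250 bases before to 50 after each start) and searched on both strands. The first search took TCACNCCAC (a sterol regulatory element) and CCAAT in the cholesterol and fatty acid lists, and TGATGNAA (the ATF4 composite site) in the stress list. CACGTG (the E-box) in ribosome biogenesis genes and TTTNNCGC (an E2F-type site) in replication genes were added after the results of that search were seen, so the choice of motifs is not independent of the matches. TCACNCCAC was present in 0 of 9 cholesterol genes that fell and 1 of 19 matched tested members, in 0 of 10 fatty acid genes that fell and 0 of 19 matched tested members, and in 1.15% of all promoters. CCAAT was present in 4 of 10 fatty acid genes that fell (40%) and in 52.6% of the 19 matched tested members. CACGTG is its own reverse complement and was counted once per place. It was present in 10 of 27 matched ribosome biogenesis genes that rose (37%), in 31.8% of the 44 matched tested members and in 7.45% of all 27195 promoters. TTTNNCGC was present in 9 of 21 replication genes that fell (42.9%), in 50% of the 42 matched tested members and in 6.92% of all promoters. TGATGNAA was present in 3 of 17 stress genes that rose (17.6%), in 25.8% of the 31 matched tested members and in 3.67% of all promoters. CCAAT was present in 6 of 9 cholesterol genes that fell (66.7%), in 73.7% of the 19 matched tested members and in 35.7% of all promoters. No share was tested. Apart from the E-box in ribosome biogenesis genes and the sterol element, which no fatty acid promoter held, each motif was at a lower share in the members that moved than in their list as a whole. One promoter is shown for each of 4 lists to give the motif its setting: that of the called member with the largest change among those with a site before the start, with the motif, on either strand, in capitals and the 250 bases before the start printed 5′ to 3′. All 4 genes lie on the plus strand: UTP14A at chrX:129905914-129906163, ATF3 at chr1:212565157-212565406, ORC3 at chr6:87589885-87590134 and INSIG1 at chr7:155297628-155297877.
UTP14A: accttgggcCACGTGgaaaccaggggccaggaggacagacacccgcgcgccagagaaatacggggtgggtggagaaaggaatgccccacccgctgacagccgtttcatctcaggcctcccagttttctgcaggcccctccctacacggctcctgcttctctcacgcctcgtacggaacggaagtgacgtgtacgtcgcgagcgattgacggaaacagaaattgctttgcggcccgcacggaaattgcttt
ATF3: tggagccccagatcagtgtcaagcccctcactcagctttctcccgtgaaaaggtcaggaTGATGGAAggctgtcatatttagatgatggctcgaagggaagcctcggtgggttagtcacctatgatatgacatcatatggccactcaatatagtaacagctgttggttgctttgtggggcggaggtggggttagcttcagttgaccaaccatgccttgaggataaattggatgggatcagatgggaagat
ORC3: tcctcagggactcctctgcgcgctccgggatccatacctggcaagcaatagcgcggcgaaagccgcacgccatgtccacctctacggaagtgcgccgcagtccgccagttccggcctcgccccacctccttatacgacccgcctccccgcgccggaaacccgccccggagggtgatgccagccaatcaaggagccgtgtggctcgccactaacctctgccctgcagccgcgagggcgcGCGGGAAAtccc
INSIG1: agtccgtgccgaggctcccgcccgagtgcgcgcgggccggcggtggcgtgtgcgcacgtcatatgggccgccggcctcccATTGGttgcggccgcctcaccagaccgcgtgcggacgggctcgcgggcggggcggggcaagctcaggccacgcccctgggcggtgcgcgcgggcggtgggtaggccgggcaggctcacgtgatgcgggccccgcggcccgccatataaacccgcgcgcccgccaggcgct
A match says only that these letters lie in the window. The UTP14A site starts 241 bases before the start, the ATF3 site 191, the ORC3 site 12 and the INSIG1 site 170.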

How the data were processed

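RNA of 24 samples (4 Ewing sarcoma lines, PlaB or vehicle, 3 samples each) was measured on single-colour Illumina beadchips. The deposited table holds each probe's intensity before normalization and its detection p-value, per the file headers, and the deposited p-values rise in steps of 0.0013. Per the submitters' processing notes, GenomeStudio, lumi and R 3.0.2 were used. The authors' deposited series matrix holds log2 intensity values, and 99.996% of them lay within 0.03 of quantile-normalized log2 intensities computed here. Its scale is therefore known, its rows are not centred, and each TC32 column has a median of 6.21.

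Intensities were background-corrected with normexp on the detection p-values (offset 16), quantile-normalized and log2-transformed (neqc, limma 3.58.1, R 4.3.3). A group-means model was fitted to all 24 arrays with empirical Bayes moderation and Benjamini-Hochberg adjustment over 17557 tested probes, and it was tested on simulated data. The 3 arrays per group limit the precision. Of the 47323 probes, 30112 had 1 gene symbol, 8 had several and 17203 had none here, and genes were read from their brightest tested probe. Some genes are not reported here.

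Named genes were the leading coding and noncoding genes with no overlap between groups, a preset list, up to 4 members of each gene list with the largest changes, the genes furthest from the other lines, genes detected in 1 group only and genes with opposed probes. Other list members were named after their values were seen. The members and lists were chosen with earlier results of these data known. Alternatives varied the background correction, normalization, filter, probe, threshold, arrays in the fit and replicates.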

Additional observations from a re-analysis of the deposited data

Results flagged for a closer look

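Of 213 named genes, 91 had a TC32 response that differed from the mean response of SKNMC, TC71 and RDES by a test of the difference itself (limma interaction contrast, adjusted p under 0.05 over all tested probes). No size is given for 10 of them that were detected on no array of one TC32 group (IGF1R, ESAM, PSMB9, MXD3, EIF4E3, AKR1B10, GGT1, RAB26, NUDT18 and GREM1), nor for 8 more that another line detected on none of its arrays (CXCL14, PCDH7, KRTAP3-1, MARCHF4, HAND2-AS1, FN1, PSMB8 and SOX11). Of the remaining 73, 43 lay above and 30 below the other lines. Among these, SNORD13, ST8SIA5 and FRZB were detected on 0 RDES vehicle arrays, and FOS on 0 TC71 vehicle arrays. Their rises in those lines are not fully measured, so the sizes of their differences are uncertain. Genes named for being furthest from the other lines were chosen by this contrast, so for them the values are a description. Each value below is the log2 change in TC32 minus the mean log2 change of the other lines, read from the gene's brightest probe. Other probes of a gene could differ. One of EIF5 lay below the other lines by -1.05 and was called, and those of PHF5A at 0.31 and SRSF5 at 0.07 were not called. One of RPL13 had a difference of -0.49, opposite to the brightest, and was not called. An RBM12 probe detected on 0 TC32 PlaB arrays also had a negative difference, without a call. A further RBM12 probe, at 0.37, was not called. Other probes of TNFSF13B at -2.46 and OLFM1 at -1.20 were called in the same direction as the brightest. So was one of RNA28SN5, at a smaller difference of 0.63.

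Genes whose TC32 response was above that of the other lines included some that fell less. The differences, from the widest, were RNA28SN5 3.18, SH3PXD2A 1.67, SOX18 1.62, FANCL 1.59, SNHG12 1.27, DDIT4 0.94, RANGAP1 0.88, MRPS26 0.85. Next came GRWD1 0.84, BID 0.79, MYC 0.79, TWNK 0.75, CCN1 0.75, ZNF296 0.73, SNORD13 0.72, KRT18 0.72. They were followed by RBM12 0.69, UQCC2 0.66, CDT1 0.66, CEBPD 0.63, FADS1 0.62, SCD 0.60, RPL13 0.59, H2AC25 0.59. Further differences were JMJD6 0.58, PFKP 0.57, RAD51AP1 0.57, DHCR7 0.55, PHF5A 0.54, SMG5 0.54, SNORA63 0.53, AIRIM 0.53. Smaller ones were DNAJA1 0.53, MXD4 0.47, SNORD16 0.45, PDRG1 0.45, MANF 0.44, SRSF5 0.43, CDCA8 0.42, ATP5PO 0.41. The list went on with MPHOSPH10 0.40, EIF5 0.39, PRPF4 0.39.

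In other genes the TC32 response was below that of the other lines. The differences, from the widest, were TNFSF13B -2.63, GRM2 -1.94, ST8SIA5 -1.82, FRZB -1.79, FOS -1.77, CDC40 -1.30, COL3A1 -1.24, ATP2B4 -1.24. Next came IFI16 -1.09, CDKN1A -1.06, CD14 -0.98, OLFM1 -0.97, AHSA2P -0.90, IFI35 -0.89, COL5A1 -0.88, INSIG1 -0.88. They were followed by RPL5 -0.87, RPS18 -0.84, SREBF1 -0.81, ATP5F1C -0.72, ATM -0.65, BNIP3L -0.60, SOX2 -0.54, PNMA2 -0.52. Further differences were HNRNPH3 -0.52, MRPL13 -0.52, DLGAP5 -0.49, RBM17 -0.45, OIP5-AS1 -0.40, ITGB2 -0.36.

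Groups of 3 arrays are too small for a test of single outlying arrays.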

How the results depend on the processing

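Of 194 named genes called in TC32, 177 kept direction and call in all 16 alternatives that read the same probe. Median centring moved the counts to 1181 up and 6301 down, to 125 up and 1320 down by 2-fold or more, and to 673 above the other lines. Counts of 2-fold changes were 159 up and 148 down at an offset of 50, 97 and 88 without background correction, and 93 and 87 from the series matrix. At an adjusted p under 0.01, 2607 rose and 2887 fell. At a detection p under 0.01 the difference in detected probes was -1185.3. Leaving out 1 array gave 3003 to 3195 up, 3326 to 3554 down, 428 to 460 up and 504 to 536 down by 2-fold or more, 1300 to 1503 above and 1175 to 1481 below the other lines, and a difference in detected probes of -2282.5 to -1807.5. The replicate numbers did not pair the samples (correlations of deviations 0.054, -0.017 and -0.001), and with the replicate block 3360 rose and 3755 fell, with 1580 above and 1498 below the other lines. Directions turned with median centring for EWSR1 (-0.14), MCL1 (-0.25), CD68 (-0.031), CD14 (-0.085), SH3PXD2A (-0.20), FANCL (-0.35) and RBM12 (-0.22). When the probes that all 24 arrays detected set the centre, they turned for IGF1R (0.044), CLDN5 (0.30), TNNT1 (0.021), MYH3 (0.19), ACTA1 (0.28), MYF5 (0.28) and FANCL (-0.042), and with cyclic loess for MYH3 (0.065) and FANCL (-0.012). Over the fits that left out 1 array, values spanned 0 for CD99 (-0.131 to 0.091), KRT8 (-0.049 to 0.214), MYH3 (-0.186 to 0.0041), MYF5 (-0.088 to 0.0014) and FANCL (-0.064 to 0.106). None of these genes was called in TC32. Another probe of the gene had the opposite sign for ATP2B4 (0.41), EWSR1 (-0.16), MYC (-0.022), SNRPN (0.043), BAX (0.11), DNAJB2 (-0.077), RPL13 (-0.70), EIF5 (-0.34 and -0.009), TCAIM (-0.53), RBM12 (-2.24), OCIAD2 (2.23), GPX8 (-1.14), SLC39A3 (0.49), DENR (0.71) and AHCTF1 (-0.81). The cause was not tested. Low signal over background limits dim probes, and 1134 tested probes were detected on no TC32 array.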
